A study of Mus musculus with 16 samples.

Results

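The genes described here are the protein-coding neighbours of Kl (Klotho) on mouse chromosome 5. They are the 95 protein-coding entries of the deposited kidney table that lie within 10 Mb of Kl on the centromeric side of chromosome 5 or anywhere distal of it (build mm39). Kl itself and genes named Rpl, Rps or Atp5 (2 in the interval) were left out. The table holds 30277 genes, of which 17903 are protein-coding. Of the 95 neighbours 92 lie proximal and 3 distal of Kl, which occupies positions 150876072 to 150917283 on the plus strand (ENSMUSG00000058488).

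Polyadenylated RNA of perfused, flash-frozen whole kidneys was sequenced from 16 C57BL/6J mice, 4 in each of 4 groups, at ages of 46 to 59 days. The KlKl groups, male and female, were homozygous for the recessive Klotho allele and had renal failure per the labels. The controls had healthy renal function and carried at least 1 normal allele. Male controls 1 and 2 and all 4 female controls were +/Kl, and male controls 3 and 4 were +/+. The allele had been moved onto the C57BL/6J background by repeated backcrossing, and 14 of the 16 animals carried at least 1 copy of it. The comparison asked here is whether genes close to Kl differed between KlKl and control kidneys of the same sex, and whether the difference varied with distance from Kl.

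Kl encodes a membrane protein of kidney tubules that lets the bone hormone FGF23, a regulator of phosphate, act on its receptor. The recessive allele is a transgene insertion upstream of the gene that lowers its transcription. In a congenic strain the chromosome segment around a selected allele can still come from the donor strain, since linked DNA is inherited with it, and an inserted sequence can also act on nearby genes. Neighbouring genes are therefore commonly examined beside the targeted gene. The labels do not give the extent of any donor segment.

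A promoter window is shown for Kl and for the nearest expressed neighbour on either side. Each line is the 250 bases before 1 RefSeq transcription start, the first listed for the gene, 5′ to 3′ on the gene's own strand. The build is GRCm38.p6, whose coordinates differ from the mm39 positions used elsewhere. By the shift between builds at Kl and Pds5b, the Stard13 window lies inside the gene's span and not at its outer 5′ end. Capitals mark the letters GGGCGG or their reverse complement CCGCCC, the core of a GC box, a motif bound by Sp1-type transcription factors. Pds5b lies at chr5:150673577-150673826 (plus strand), Kl at chr5:150952357-150952606 (plus strand) and Stard13 at chr5:151190194-151190443 (minus strand).
Pds5b: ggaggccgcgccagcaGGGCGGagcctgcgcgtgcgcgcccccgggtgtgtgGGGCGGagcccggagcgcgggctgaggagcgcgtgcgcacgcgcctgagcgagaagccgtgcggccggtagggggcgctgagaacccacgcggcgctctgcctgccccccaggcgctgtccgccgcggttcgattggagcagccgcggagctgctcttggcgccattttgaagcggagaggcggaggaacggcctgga
Kl: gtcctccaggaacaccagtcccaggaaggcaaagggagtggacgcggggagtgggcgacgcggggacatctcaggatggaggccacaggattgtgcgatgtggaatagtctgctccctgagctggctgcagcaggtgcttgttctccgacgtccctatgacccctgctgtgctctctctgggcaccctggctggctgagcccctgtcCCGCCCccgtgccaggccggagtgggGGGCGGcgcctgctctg
Stard13: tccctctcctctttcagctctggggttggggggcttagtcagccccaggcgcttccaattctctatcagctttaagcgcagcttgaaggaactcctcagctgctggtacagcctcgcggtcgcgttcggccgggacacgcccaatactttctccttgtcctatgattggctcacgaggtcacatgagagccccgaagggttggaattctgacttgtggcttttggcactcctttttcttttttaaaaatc

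The Pds5b window holds 2 GC boxes, 36 CpG dinucleotides and 75.6% G and C. The Kl window holds 2 GC boxes, 13 CpG and 66.8% G and C, and that of Stard13 holds 0 GC boxes, 11 CpG and 53.2% G and C. None of the 3 holds TATAAA on either strand. Over all 32851 RefSeq promoters of the same length 32.7% hold GGGCGG and 12.4% hold TATAAA on either strand, and the median window has 52.4% G and C and 6 CpG. Of the 95 neighbours 77 matched that table by symbol, with 90 promoters, of which 58.9% hold GGGCGG and 12.2% TATAAA. The neighbours are all protein-coding, whereas the 32851 promoters were not limited to protein-coding genes, so the 2 sets are unlike. A match describes the letters of the window and no more.

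The deposited values are TPM that sum to about 309446 per library and were scaled by the whole span of a gene, introns included. Reads recovered from them ranged from 13029805 to 20109121 in males and from 8209439 to 14505219 in females, the lowest being female control 3. Markers of proximal tubule (Slc34a1, Lrp2, Slc5a2 and Slc22a6) summed to 4403 to 7189 CPM (recovered reads scaled to library size), and those of the thick limb (Umod and Slc12a1) to 3015 to 4146, so that defining markers of the labelled tissue were present in every library. Each library has a name of its own and was taken as 1 animal, and the p-values measure the spread between these libraries. Male KlKl 3 and female control 3 held several of the extreme values given below, and the differences they moved most are given without them as well. In whole kidney, fewer cells of a type and less RNA per cell cannot be told apart.

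Of the 95 neighbours 28 had a TPM of at least 1 in at least 4 libraries, 75 had at least 10 reads in at least 4 libraries, and 20 met neither limit, with at most 11 reads in any library. All 9 neighbours within 1 Mb of Kl fell below the TPM limit, where the nearest gene tested is Hsph1 at 1316 kb. For that reason the results below lead with recovered reads (limma voom, 17448 genes), expressed as CPM, and give the deposited TPM (limma on log2(TPM + 1), 8059 genes) beside them. A difference is KlKl minus control on the log2 scale, and a gene counts as called when limma's p, adjusted over all genes tested by the Benjamini-Hochberg method, is under 0.05. Nothing in the labels says how strand was used in counting, and 27 of the 75 neighbours tested on reads overlap a gene on the opposite strand, so that reads of such pairs may be mixed. Fam220a is listed under 2 identifiers at overlapping positions, and its reads may be split between them.

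Kl fell in KlKl kidneys of both sexes, and none of its neighbours passed the test in either sex. In males Kl stood at 538, 411, 548 and 481 CPM in controls 1 to 4 and at 55.5, 37.2, 9.01 and 52.3 in KlKl 1 to 4. In females it stood at 204, 326, 151 and 136 in controls and at 10.1, 4.33, 3.85 and 13.4 in KlKl. The groups did not overlap in either sex. The log2 difference was -3.96 (SE 0.48) in males and -4.77 (SE 0.58) in females, with limma adjusted p of 0.00426 and 0.00415. Kl ranked 1 by p among all genes tested in both sexes. On reads 6 genes of the whole table (0.0344%) were called in males, 2 (0.0115%) in females, 4 (0.0229%) for the mean of the sexes and 0 (0%) for the difference between the sexes. Of the 75 neighbours 0 were called in each of these 4 contrasts.

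At an unadjusted p under 0.05 the neighbours stood near the share of all genes. In males 3 of 75 neighbours (4%) passed this limit, against 6.21% of all genes, and in females 0 of 75, against 2.56%. For the mean of the sexes 5 of 75 (6.67%) passed, against 5.97% of all genes, and for the difference between the sexes 1 of 75 (1.33%), against 2.37%. The median difference of the neighbours was -0.042 in males and -0.006 in females, beside -0.015 and 0.012 over all genes tested. The 785 tested protein-coding genes of chromosome 5 outside the interval had medians of -0.01 and 0.01.

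The precision of single genes bounds what could have been seen. The 95% interval of the difference lay wholly within 1 log2 unit of 0, a doubling or halving, for 70 of 75 neighbours in males, 69 in females and 73 for the mean of the sexes. It lay within 1.5-fold for 58, 50 and 67 of them. The middle value of the half-width of the interval was 0.32 in males and 0.35 in females. Kl's own intervals ran from -4.98 to -2.95 in males and from -5.99 to -3.55 in females, beyond any value in a neighbour's interval.

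**Figure D1:**
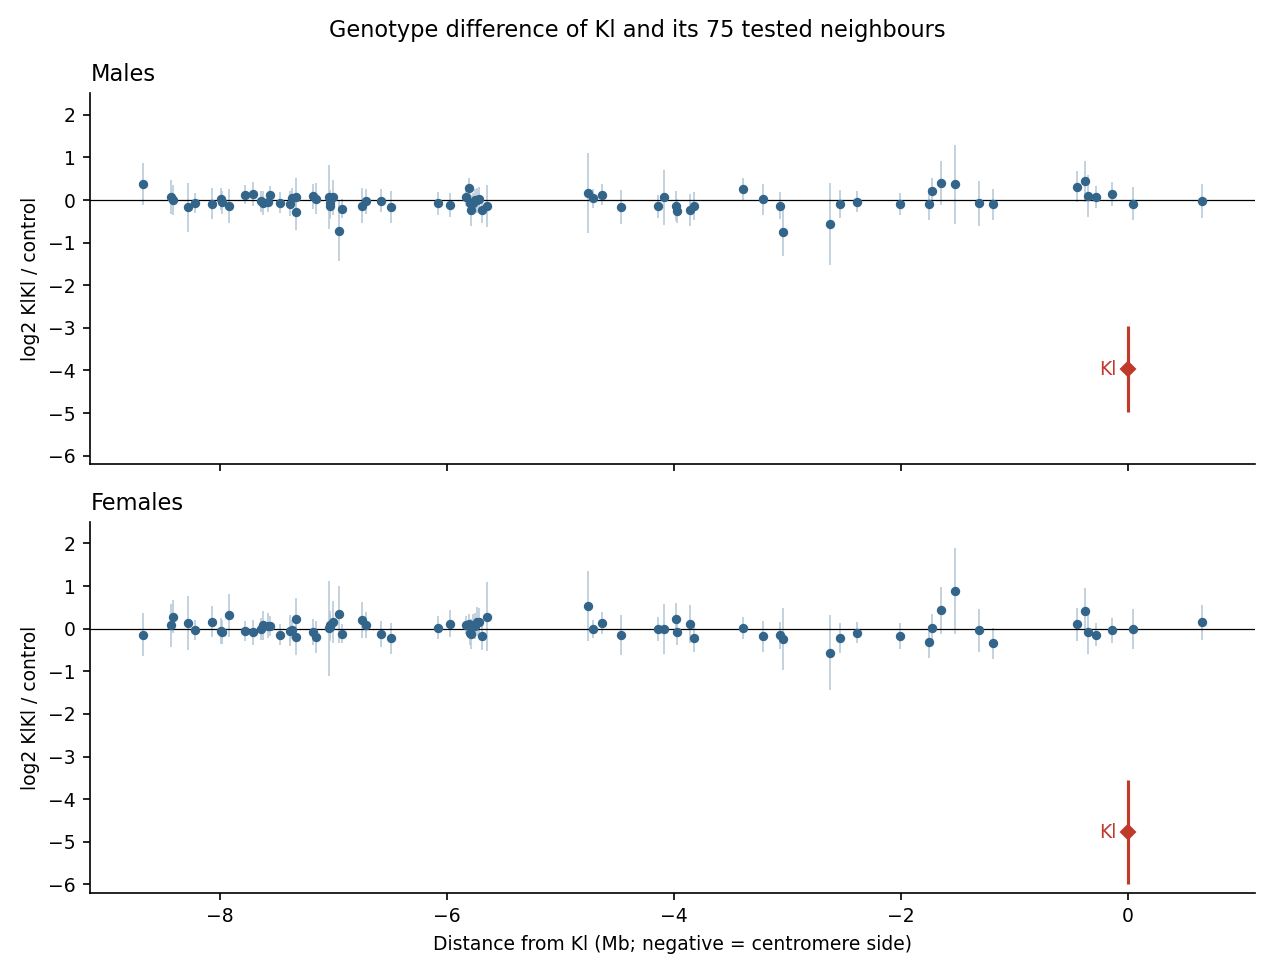
Log2 difference of KlKl against control (y axis) of Kl (red diamond) and of its 75 tested neighbours (blue points) by distance from Kl in Mb (x axis), in males above and females below, with 95% intervals from limma voom on recovered reads. Kl stands at -3.96 in males and -4.77 in females, while the neighbours scatter around 0 at all distances.

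Of the 9 neighbours within 1 Mb, 7 could be tested. Stard13 (ENSMUSG00000016128, positions 150960975 to 151157302), a GTPase-activating protein with a lipid-binding domain, is the nearest neighbour, 43.7 kb distal of Kl on the opposite strand. In males it stood at 7.46, 8.14, 10.65 and 8.28 CPM in controls and at 5.76, 8.56, 9.39 and 9.41 in KlKl. In females it stood at 8.43, 8.20, 4.50 and 6.95 in controls and at 6.30, 7.99, 7.61 and 6.43 in KlKl. The genotypes overlapped in both sexes. The differences were -0.083 (95% interval -0.47 to 0.30) in males and -0.012 (-0.48 to 0.45) in females, the latter -0.17 without female control 3.

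Pds5b (ENSMUSG00000034021, positions 150597204 to 150734156), a regulator of the cohesin ring that holds sister chromatids together, is the nearest proximal neighbour, 142 kb from Kl on the same strand. In males it stood at 28.9, 35.1, 33.8 and 28.9 CPM in controls and at 35.7, 34.1, 31.3 and 39.3 in KlKl. In females it stood at 25.4, 29.3, 41.5 and 25.8 in controls and at 27.3, 25.9, 30.7 and 30.8 in KlKl. Female control 3 was above every other female library, and the genotypes overlapped in both sexes. The differences were 0.15 (-0.14 to 0.43) in males and -0.041 (-0.34 to 0.26) in females, and 0.096 in females without female control 3. On the deposited TPM scale the male groups of Pds5b did not overlap, at 0.165 to 0.218 TPM in controls and 0.243 to 0.288 TPM in KlKl. The same was so in males for N4bp2l2, at 0.570 to 0.653 and 0.672 to 0.967 TPM, for Brca2, at 0.0480 to 0.0702 and 0.0729 to 0.182 TPM, and for Fry, at 0.0202 to 0.0284 and 0.0287 to 0.0713 TPM. With Pds5b these were 4 of the 7 neighbours within 1 Mb tested on reads, and the female groups of all 4 overlapped. In CPM the groups of all 4 overlapped in males and in females. All 4 genes were below the limit of 1 TPM in 4 libraries and so outside the fit on TPM. Pds5b and N4bp2l2 did reach a limit of 0.1 TPM. Over the 8059 genes at the limit of 1 TPM, 11.6% were higher without overlap in KlKl males. The share among genes at the lower level of these 4 was not taken.

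N4bp2l2 (ENSMUSG00000029655) and N4bp2l1 (ENSMUSG00000041132), a pair of related genes named for their likeness to the Nedd4-binding protein N4BP2, lie 286 kb and 355 kb from Kl. In males N4bp2l2 stood at 42.4, 47.5, 40.8 and 40.4 CPM in controls and at 50.9, 40.1, 41.3 and 47.4 in KlKl. In females it stood at 40.4, 41.9, 61.8 and 44.0 in controls and at 42.2, 41.0, 39.5 and 44.5 in KlKl, with female control 3 again the highest. The genotypes overlapped, with differences of 0.067 (-0.20 to 0.33) in males and -0.14 (-0.41 to 0.13) in females, the latter -0.009 without female control 3. N4bp2l1 ranged from 3.67 to 7.41 CPM in male controls and from 4.54 to 8.95 in male KlKl, and from 7.26 to 8.32 in female controls and 4.90 to 8.48 in female KlKl. Its differences were 0.094 (-0.39 to 0.58) and -0.084 (-0.61 to 0.44), and leaving out male KlKl 3 gave -0.069 in males.

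Brca2 (ENSMUSG00000041147, positions 150446095 to 150493795), which acts in DNA repair by homologous recombination, lies 382 kb from Kl and had the smallest unadjusted p for the mean of the sexes. In males it stood at 3.31, 2.92, 3.76 and 3.56 CPM in controls and at 3.62, 4.37, 7.35 and 3.85 in KlKl. In females it stood at 2.90, 4.35, 2.32 and 3.77 in controls and at 5.37, 4.08, 3.5 and 4.88 in KlKl. The highest library of each sex was KlKl and the lowest a control, and the genotypes overlapped in both sexes. The differences were 0.44 (-0.037 to 0.91) in males and 0.41 (-0.13 to 0.96) in females, and 0.42 (0.063 to 0.79) for the mean of the sexes. That mean had an unadjusted p of 0.0241 and a limma adjusted p of 0.773. Without male KlKl 3 the male difference was 0.22, and without female control 3 the female difference was 0.30.

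Fry (ENSMUSG00000056602, positions 150042110 to 150421219), a large scaffold protein of microtubules and NDR kinases, lies 455 kb from Kl. In males it stood at 9.80, 12.3, 12.2 and 10.5 CPM in controls and at 11.3, 11.9, 22.9 and 12.1 in KlKl. The male difference of 0.31 (-0.055 to 0.68) became 0.076 without male KlKl 3, the library at 22.9. Female controls ranged from 13.4 to 14.5 and female KlKl from 14.2 to 15.2, with a difference of 0.099 (-0.30 to 0.50).

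Rfc3 (ENSMUSG00000033970, positions 151566221 to 151574708), a subunit of the clamp loader of DNA replication, lies 649 kb distal of Kl. It ranged from 3.85 to 4.89 CPM in male controls, 3.66 to 5.75 in male KlKl, 4.25 to 6.64 in female controls and 4.96 to 7.32 in female KlKl. The genotypes overlapped in both sexes, with differences of -0.026 (-0.42 to 0.37) and 0.15 (-0.25 to 0.56). Rxfp2, the receptor of the testis hormone INSL3, had at most 6 reads in any library and Vmn2r18, a vomeronasal receptor, at most 2, and neither was tested.

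**Figure D2:**
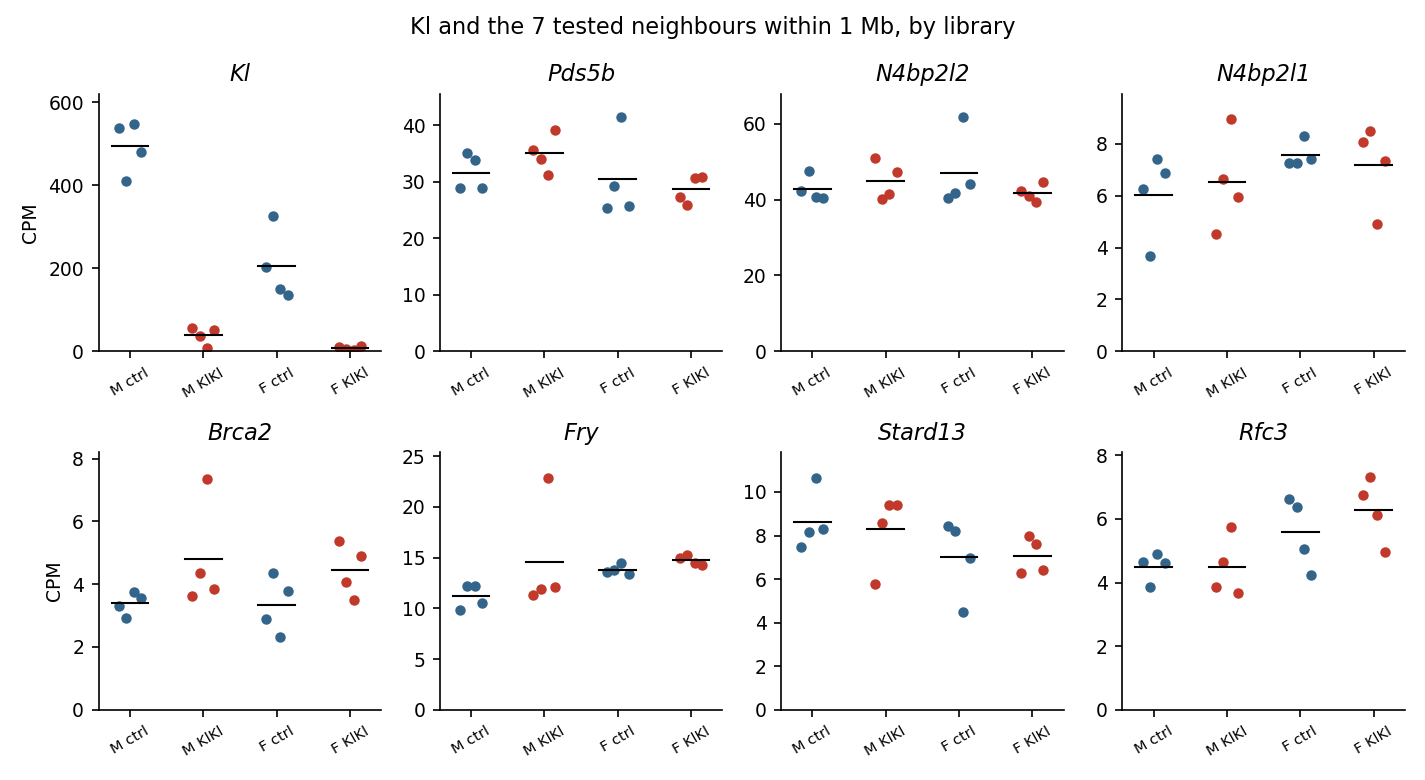
CPM (y axis, from 0, a scale of its own in each panel) of Kl and of the 7 tested neighbours within 1 Mb, for the 4 libraries of each sex and genotype (points) and their mean (line). Kl ran from 411 to 548 in male controls and from 9.01 to 55.5 in male KlKl without overlap, while KlKl and control libraries of each neighbour overlap within each sex in CPM, the scale drawn.

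By distance, the medians of the tested neighbours stayed within 0.13 log2 units of 0 in both sexes. Within 1 Mb the 7 genes tested (of 9) had a median difference of 0.094 in males and -0.012 in females. From 1 to 3 Mb the 10 tested (of 13) had -0.085 and -0.13. From 3 to 6 Mb the 25 tested (of 30) had -0.079 and 0.022, and from 6 to 10 Mb the 33 tested (of 43) had -0.042 and 0.012. The medians did not change in 1 direction with distance in either sex.

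The signed difference followed distance weakly, with a Spearman rank correlation over the 75 genes of -0.02 in males and 0.14 in females. The size of the difference for the mean of the sexes had a rank correlation of -0.38 with distance, so that nearer genes had larger values of either sign. In males alone that correlation was -0.26 and in females alone -0.19. The size had a rank correlation with the mean CPM of -0.05 for the mean of the sexes, -0.21 in males and -0.31 in females. For the mean of the sexes the standard error of the same genes had a rank correlation of -0.21 with distance and -0.65 with the mean CPM. On deposited TPM, where no gene within 1 Mb was tested, the rank correlation of size with distance was 0.19 over 28 genes. These are descriptions over genes that share the same libraries. The male and female differences had a rank correlation of 0.22 over the 75 genes and the same sign in 40 of them.

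Farther from Kl, Slc46a3 (ENSMUSG00000029650, positions 147815247 to 147831626) had the most negative difference in males and the smallest unadjusted p there. It encodes a lysosomal membrane transporter and lies 3044 kb from Kl. In males it stood at 26.2, 24.99, 18.7 and 25.4 CPM in controls and at 20.3, 20.9, 5.94 and 14.9 in KlKl. In females it stood at 11.6, 10.97, 10.2 and 9.08 in controls and at 9.65, 9.32, 9.19 and 7.49 in KlKl. Male KlKl 3 was far below the other male libraries, and the male groups overlapped through control 3. The male difference of -0.75 (-1.31 to -0.19, unadjusted p 0.012) had a limma adjusted p of 0.604, and it was -0.35 without male KlKl 3. The female difference was -0.25 (-0.97 to 0.48). In females the extremes on reads were Medag at 0.88, with 1 to 14 reads per library, and Mtus2 at -0.56, with 3 to 22. The most negative difference between the sexes in the genotype effect was that of Rsph10b, at -1.06, with 5 to 21 reads per library. Its limma voom unadjusted p was 0.0348 and its adjusted p 0.9998.

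Arpc1b (ENSMUSG00000029622, positions 145051025 to 145067516), a subunit of the Arp2/3 complex that branches actin filaments, had the smallest p on deposited TPM. Its male values were 2.22, 2.04, 2.17 and 2.497 TPM in controls and 2.81, 3.53, 4.37 and 2.74 TPM in KlKl, without overlap. In CPM they were 46.7, 42.9, 40.6 and 43.8 in controls and 42.0, 59.7, 61.1 and 50.1 in KlKl, and KlKl 1 fell among the controls. The male difference was 0.42 on log2(TPM + 1) (limma unadjusted p 0.00117, adjusted p 0.16) and 0.28 on reads (0.026 to 0.53, limma adjusted p 0.756), or 0.20 on reads without male KlKl 3. In females it was 0.20 on log2(TPM + 1) and 0.10 on reads. Arpc1b overlaps Pdap1 on the opposite strand.

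Neighbours were also grouped by what their products do, in lists that do not hold every neighbour. Among cytoskeletal genes 11 of 12 could be tested on reads, with 0 called, 4 higher and 7 lower in KlKl males, and a median of -0.054. Actb, cytoplasmic beta-actin, had differences of -0.054 (-0.33 to 0.22) in males and -0.079 (-0.36 to 0.20) in females. Rac1, a small GTPase that drives actin protrusion, had 0.05 and -0.021. Stard13, Fry and Arpc1b, described above, belong to the same group. Reads of Actb may be shared with its many processed pseudogenes.

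Among genes of protein folding and turnover 9 of 9 were tested and 0 called, with medians of -0.04 in males and -0.033 in females. Hsph1, a large heat shock protein, ranged from 81.6 to 146 CPM in male controls and from 64.4 to 177 in male KlKl, with a difference of -0.079 (-0.61 to 0.45). Rnf6, a ubiquitin ligase, had differences of 0.036 and -0.006, and Uspl1, a SUMO protease, had 0.20 and 0.01, the latter 0.185 without female control 3. Uspl1 overlaps Hmgb1 on the opposite strand.

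Among genes of transcription, splicing and translation machinery 9 of 9 were tested and 0 called, with medians of -0.081 in males and 0.025 in females. Gtf3a, the transcription factor of 5S ribosomal RNA genes, stood at 44.5, 39.9, 45.1 and 41.1 CPM in male controls and at 38.1, 39.9, 37.1 and 39.6 in male KlKl. Its female controls stood at 38.4, 38.8, 19.4 and 45.0 and female KlKl at 39.0, 37.4, 44.3 and 42.3, with female control 3 far below the rest. The differences were -0.14 (-0.50 to 0.22) in males and 0.24 (-0.13 to 0.61) in females, and 0.003 in females without female control 3. Polr1d, a subunit shared by RNA polymerases I and III, had -0.15 and -0.22, the latter -0.022 without female control 3, and Bud31, a spliceosome component, -0.24 and -0.12. Gtf3a overlaps Mtif3, and Bud31 overlaps Ptcd1, on the opposite strand.

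Among transcription factors and chromatin proteins 9 of 11 were tested and 0 called, with medians of -0.03 in males and 0.078 in females. Hmgb1, an abundant DNA-bending chromatin protein with many processed pseudogenes, had differences of -0.097 and -0.32. Its female controls stood at 158, 174, 321 and 183 CPM, and without female control 3 the female difference was -0.078. Zfp655, a zinc finger protein, had -0.22 and -0.17. The 3 tested genes of the genome maintenance list, Brca2, Pds5b and Rfc3, had 0 called and positive differences in 2 of 3 in each sex. That list is not complete, and Pms2, also tested on reads, is not on it.

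Among genes of membrane transport and trafficking 8 of 9 were tested and 0 called, with medians of -0.068 in males and -0.086 in females. Ap5z1, a subunit of the AP-5 adaptor of late endosomes, had -0.005 in males and 0.29 in females, and 0.085 in females without female control 3. The 2 Cyp3a drug-metabolising cytochromes of the interval, Cyp3a11 and Cyp3a57, had at most 7 and 3 reads in any library and were not tested. In signalling 7 of 10 genes were tested and 0 called, with medians of -0.084 and 0.14. Flt1, the endothelial VEGF receptor 1, had differences of 0.015 (-0.35 to 0.38) and -0.18 (-0.55 to 0.19).

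Alox5ap, the protein that hands arachidonic acid to 5-lipoxygenase in leukocytes, had positive differences in both sexes, 0.40 (-0.13 to 0.92) in males and 0.43 (-0.12 to 0.99) in females. It stood at 2.16, 2.05, 1.74 and 1.72 CPM in male controls and at 2.14, 2.44, 4.28 and 1.76 in male KlKl. Female controls stood at 2.21, 2.00, 3.55 and 2.03 and female KlKl at 3.19, 2.74, 3.06 and 3.57. The mean of the sexes, 0.41, had an unadjusted p of 0.0353 and a limma adjusted p of 0.803, and the male difference was 0.15 without male KlKl 3. Beside it, 7 of 7 macrophage markers (C1qa, C1qb, C1qc, Cd68, Csf1r, Lyz2 and Adgre1) were tested, 6 of 7 had positive differences in each sex and 0 were called. Their sum ranged from 102 to 152 CPM in male controls, 112 to 176 in male KlKl, 116 to 161 in female controls and 145 to 169 in female KlKl, and its part in the Alox5ap values was not tested.

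The deposited scale gave a common positive shift that the neighbours shared with all genes. On log2(TPM + 1) the median over all 8059 genes was 0.18 in males, 0.11 in females, 0.14 for the mean of the sexes and 0.072 for the difference between them. The 28 tested neighbours had medians of 0.15, 0.089, 0.12 and 0.068, each below the median of all genes. Of the neighbours 27 of 28 were positive in males and 25 of 28 in females, whereas on reads 29 of 75 and 36 of 75 were. The median-ratio size factors of the deposited values were 0.993 to 1.19 in male controls and 1.12 to 1.43 in male KlKl. With those factors divided out the neighbours' medians were -0.015 in males and -0.02 in females.

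On deposited TPM 0 of 28 neighbours were called in any of the 4 contrasts, where 0.0993% of all genes were called in males, 0.0124% in females, 0.0372% for the mean of the sexes and 0% for the difference between them. At an unadjusted p under 0.05 there were 5 of 28 neighbours (17.9%) in males against 19.9% of all genes, and 0 of 28 in females against 4.67%. For the mean of the sexes 8 of 28 (28.6%) passed, against 26.3% of all genes, and for the difference between the sexes 0 of 28, against 2.17%. The oldest animals were male KlKl 4, at 59 days, and female control 3, at 57 days. When age was added as a covariate 3 neighbours were called in males, Arpc1b, Rnf6 and Zdhhc4 (10.7%), beside 11.3% of all genes. On median-ratio scaled values and on reads the same covariate gave 0 called neighbours, and in males 0.0124% and 0.0229% of all genes were called.

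The count of neighbours whose genotype groups did not overlap also depended on the scale. On TPM 4 of 28 did not overlap in males with KlKl higher (Actb, Arpc1b, Rac1 and E130309D02Rik), where 11.6% of all genes did, and 0 with KlKl lower, where 0.174% did. In females 2 of 28 were higher without overlap (Arpc1a and Arpc1b), beside 2.79% of all genes, and 0 lower, beside 0.149%. In CPM 1 of 75 was higher in males (Uspl1), beside 2.06%, and 1 lower (Gtf3a), beside 2.44%. In females 0 were higher, beside 0.928%, and 2 lower (B3glct and Ccz1), beside 1.13%. Uspl1 did not reach 1 TPM in 4 libraries and so was not among the 28. Its male groups did not overlap on TPM either, at 0.597 to 0.811 TPM in controls and 0.834 to 1.30 TPM in KlKl. Its male difference in CPM had a limma voom adjusted p of 0.931. Ccz1 and E130309D02Rik are named here after their values were seen.

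**Figure D3:**
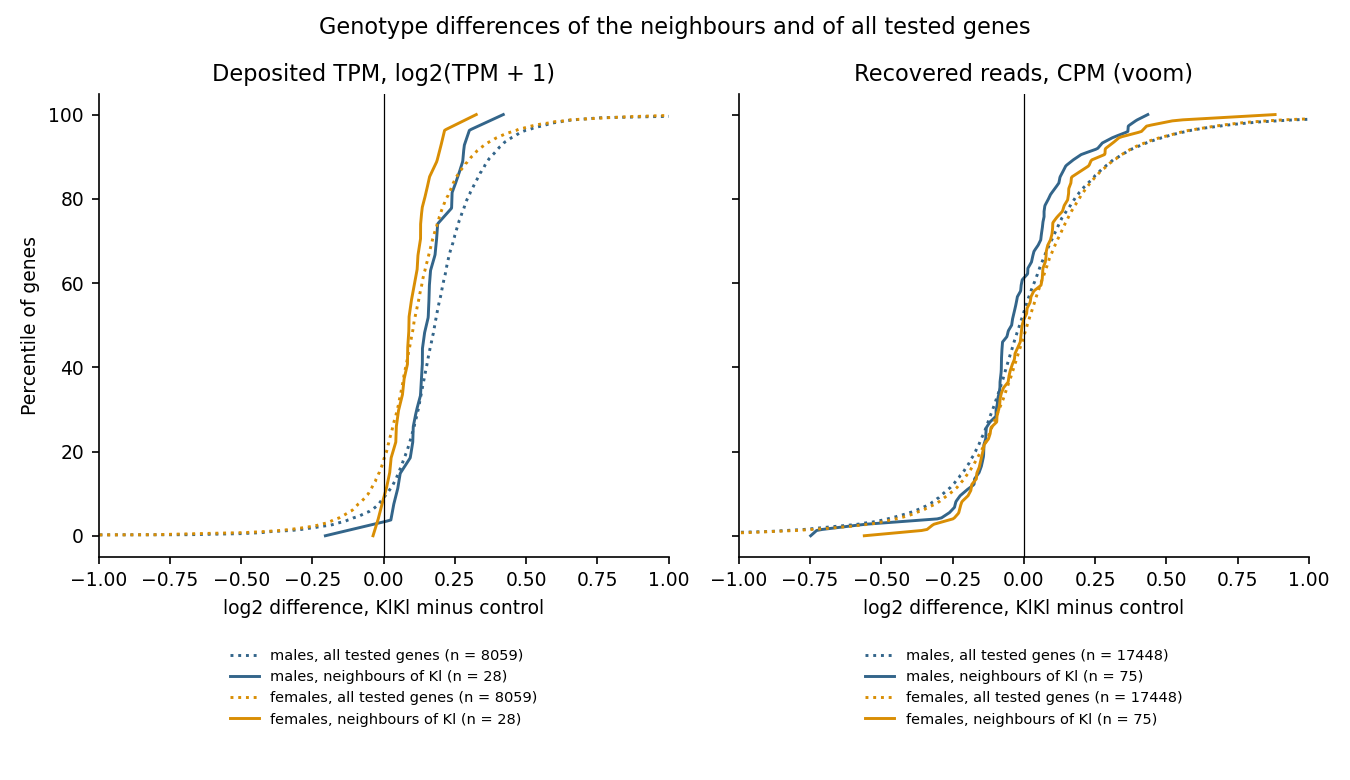
Percentile of genes (y axis) by log2 difference of KlKl minus control (x axis, shown from -1 to 1) for the neighbours of Kl (solid) and all tested genes (dotted), in males (blue) and females (orange), on deposited TPM at left and on recovered reads at right. On TPM both sets of curves lie to the right of 0, with male medians of 0.15 and 0.18, and on reads both cross near 0, with male medians of -0.042 and -0.015.

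Of the male controls 2 were +/+ and 2 were +/Kl. Both +/Kl libraries bear names of the series CFK and both +/+ libraries names of the series CFdk, so that genotype and name series cannot be told apart among them. Among the 75 neighbours 0 had all +/+ libraries above all +/Kl libraries and these above all KlKl libraries, and 0 had the reverse order. The log2 ratio of +/+ to +/Kl means had a median of 0 and ran from -0.62 to 0.74. Kl stood at 481 to 548 CPM in +/+ males, 411 to 538 in +/Kl males and 9.01 to 55.5 in KlKl males. With 2 animals per genotype no test was made.

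The same neighbours differed between the sexes in about the share that all genes did. In controls 29 of 75 neighbours (38.7%) were called between males and females on reads, beside 39.8% of all genes, 14 of them higher in males and 15 higher in females. In KlKl 17 of 75 (22.7%) were called, beside 28.7% of all genes, 8 higher in males and 9 in females. Both lists shared 15 genes, 51.7% of the control list and 88.2% of the KlKl list, all 15 in the same direction. None of the 7 tested genes within 1 Mb was called in either genotype. Without male KlKl 3, Fry had limma adjusted p of 0.0301 in controls and 0.0329 in KlKl, lower in males, and Rfc3 had 0.0222 in KlKl. Without female control 3, Rfc3 and Pds5b had limma adjusted p of 0.0472 and 0.0373 in KlKl.

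Zscan25, a zinc finger protein of the SCAN family, had the largest difference between control males and females, at 1.67 (0.96 to 2.37, limma adjusted p 0.00107). It stood at 4.21, 5.10, 5.35 and 5.71 CPM in male controls and at 2.77, 1.93, 0.409 and 1.64 in female controls, without overlap. In KlKl the difference was 1.24 (limma adjusted p 0.00706), and without female control 3 that of controls was 1.25. Slc46a3 was higher in control males by 1.16 (limma adjusted p 0.00608). In KlKl its difference of 0.66 was not called on reads (limma adjusted p 0.124), whereas without male KlKl 3 it was 1.06 (limma adjusted p 0.000366). On log2(TPM + 1) Slc46a3 was called in both genotypes, at 0.638 in controls and 0.453 in KlKl (limma adjusted p 0.000773 and 0.00714). Usp12, a deubiquitinase, was higher in males in both genotypes, by 0.84 and 0.70, as were the kinase gene Lmtk2, by 0.96 and 0.63, and the forkhead factor gene Foxk1, by 0.94 and 0.92.

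Rasl11a, a small GTPase of the Ras family, was lower in males, with a log2 difference of -1.06 in controls and -0.995 in KlKl. Its male controls stood at 5.65, 5.60, 4.22 and 5.71 CPM and the female controls at 14.8, 13.98, 5.32 and 10.2, so that female control 3 fell within the male range. Actb was lower in males, at -0.50 in controls and -0.48 in KlKl, as was Arpc1b, at -0.63 and -0.46. On log2(TPM + 1) Rasl11a, Actb and Arpc1b were not called in either genotype. There Rasl11a was at -0.455 in controls and -0.378 in KlKl, Actb at -0.161 and -0.01, and Arpc1b at -0.207 and 0.012. The median over all genes on that scale was 0.257 in controls and 0.332 in KlKl. Flt1 was lower in males, at -0.82 and -0.63, with 55.9 to 66.9 CPM in male controls and 73.4 to 145 in female controls. Markers of endothelium (Pecam1, Kdr, Emcn, Egfl7 and Cdh5) summed to 201 to 267 in male controls and 257 to 325 in female controls, with 2 of 5 called and 3 of 5 higher in males, and their part in the Flt1 value was not tested.

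Other markers and depth moved with sex as well. Stroma and smooth muscle markers summed to 120 to 175 CPM in male controls and 275 to 282 in female controls, and proximal tubule markers to 5809 to 7189 and 4627 to 5225. Male libraries were on the whole the deeper ones, as given above. The part of these values in the sex differences of the neighbours was not tested. The difference between the sexes in the genotype effect was tested directly, with 0 of 75 neighbours called.

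**Figure D4:**
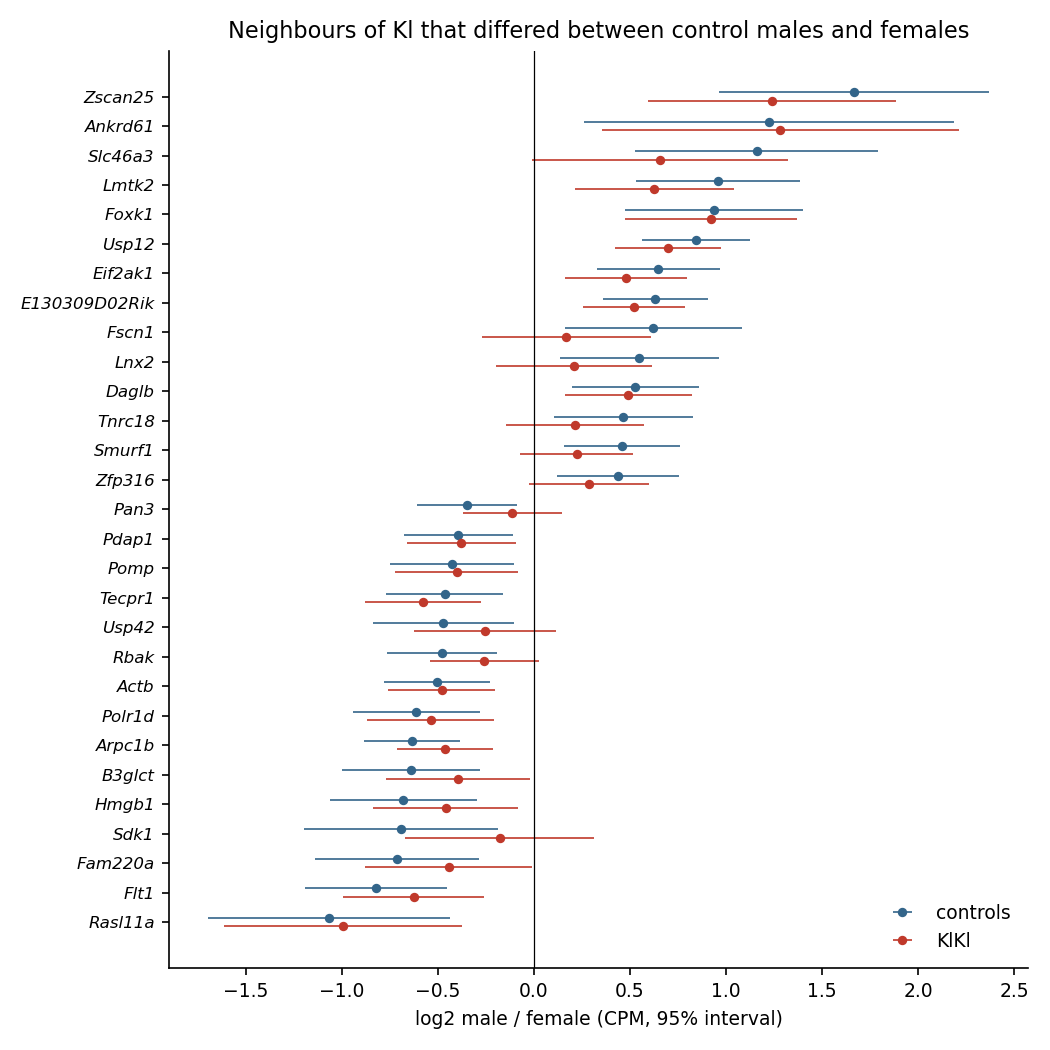
Log2 ratio of males to females (x axis, with 95% intervals from limma voom on recovered reads) for the 29 neighbours of Kl called in controls, in controls (blue) and in KlKl (red). The values run from Rasl11a at -1.06 to Zscan25 at 1.67 in controls, and each gene has the same sign in KlKl.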

How the data were processed

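The authors deposited 1 table of TPM for 16 kidney libraries. Partek and build mm39 are named in the submitters' processing notes. For the aligner, counting rule, strand setting and annotation release nothing is given in the sources used here. The TPM follow reads plus 0.0001 divided by gene span and scaled to a fixed total. Reads were recovered from this relation, and 81.2% of values under 20 reads came out whole within 0.1. Limma 3.58.1 in R 4.3.3 fitted group means with 12 residual degrees of freedom, Benjamini-Hochberg adjustment at 0.05 and all 16 libraries, on log2(TPM + 1) for genes with TPM of at least 1 in 4 libraries. Since this fit holds no gene within 1 Mb of Kl, the text leads with limma voom on recovered reads with TMM scaling (10 reads in 4 libraries). Both fits were also run on simulated reads, drawn with 1 spread for all genes and with a set of genes changed in KlKl. No shift of scale between genotypes was put in, so these runs do not bear on the effect of scaling.

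The members, gene lists and tests were chosen with earlier results of these data known. Genes named are Kl, all neighbours within 1 Mb, the 5 tested neighbours of highest TPM, any called, and members of the role lists. The 3 neighbours of largest difference per sex and direction on log2(TPM + 1), not on reads, are named as well. Medag, Mtus2 and Rsph10b are named after their values on reads were seen. Alternatives covered the pseudocount, filter, scaling, covariates, weights and leaving out each library. Comparisons between the sexes, overlap counts, age or weights on scaled values and the read-based leave-outs were added after seeing the data.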

Additional observations from a re-analysis of the deposited data

Results flagged for a closer look

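In 76 groups of 4 libraries (Kl and the named tested neighbours, CPM) 4 libraries stood apart by Dixon's 95% criterion, which chance meets in about 1 in 20 groups. Fry was at 22.88 in male KlKl 3 and at 11.28 to 12.08 in the other male KlKl. N4bp2l1 was at 8.323 in female control 3 and at 7.257 to 7.436 in the other female controls. Rnf6 was at 82.37 in male control 2 and at 72.3 to 74 in the other male controls. Slc46a3 was at 18.68 in male control 3 and at 24.99 to 26.22 in the other male controls.

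Gtf3a was below the control mean in every male KlKl library and above it in every female KlKl library. The direction in females rested on female control 3, since 2 of the 4 female KlKl libraries lay below the mean of 40.7 CPM of the other 3 controls. The male minus the female difference was -0.377, with a limma voom adjusted p of 0.9998, and -0.143 without female control 3.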

How the results depend on the processing

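Counts of called neighbours stayed at 0 for KlKl against control in every setting run except 2 on deposited TPM. With age as a covariate 3 were called in males and 5 for the mean of the sexes (Ap5z1, Arpc1a, Arpc1b, Rnf6 and Zdhhc4). With library weights 1 was called in males (Arpc1b) and 2 for the mean of the sexes (Arpc1a and Arpc1b). Among all genes these settings called 11.3% and 3.09% in males and 17.5% and 6.65% for the mean of the sexes. Of the 28 neighbours 0 were called when either was applied to median-ratio scaled values. With age there, 0.0124% of all genes were called in males, in females and for the mean of the sexes. With library weights there, 0.0993% were called in males, 9.63% in females and 1.66% for the mean of the sexes. The cause was not tested.

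The neighbours' median on TPM moved with scaling. In males it was 0.061 without a filter, -0.015 with median-ratio scaling, -0.002 and -0.018 with that scaling and library weights or age, and -0.042 on reads. In females it was -0.02, -0.005 and -0.01 with these 3 scaled settings and -0.006 on reads. For the mean of the sexes it was -0.012, -0.015, -0.011 and -0.001, and for the difference between the sexes -0.027 with scaling and age and -0.022 on reads. Leaving out 1 library gave 0.12 to 0.187 in males, 0.058 to 0.115 in females, 0.1 to 0.135 for their mean and 0.029 to 0.102 for their difference, with 0 called.

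On TPM at limits of 1 and of 0.1 the band medians were 0.175 and 0.079 (1 to 3 Mb, males), 0.076 and 0.02 (1 to 3 Mb, females), 0.131 and 0.117 (3 to 6 Mb, males) and 0.15 and 0.091 (6 to 10 Mb, males), and 0.093 at the limit of 1 (6 to 10 Mb, females). Within 1 Mb the 4 genes tested at the limit of 0.1 had medians of 0.089 in males and 0.013 in females. Those over all genes at that limit were 0.105 and 0.049. At a limma unadjusted p under 0.05 there were 2 of these 4 in males and 0 in females, and the share over all genes was not taken. At the limit of 1 TPM, 19.9% of all genes passed in males and 4.67% in females. The rank correlation of difference with distance in males was 0.25 on TPM and 0.37 with median-ratio scaling. That of size for the mean of the sexes was 0.19 and 0.17 at the 2 limits, over fewer genes.

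Sex calls in controls numbered 14 of 28 on TPM (50%), beside 4236 of 8059 genes, with all 14 higher in males. They numbered 12 of 28 with median-ratio scaling, and 19 to 31 of 75 on reads with 1 library left out (19 without male control 4). In KlKl they numbered 15 of 28 on TPM (53.6%), beside 4406 of 8059 genes, with all 15 higher in males. They numbered 9 of 28 with median-ratio scaling, and 11 to 24 of 75 on reads with 1 left out (11 without male KlKl 2 or female KlKl 2). For the scaled and left-out settings the share of all genes was not taken.

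No clear pairing of the libraries by replicate number was seen, though so few libraries cannot exclude it. Same-numbered deviations correlated at -0.156 to 0.236 and 5 of 16 libraries correlated best with their own number. With the number as a block 0 neighbours were called in all 4 genotype contrasts on both scales. On reads with this block 28 of 75 were called between the sexes in controls and 19 of 75 in KlKl. The share of all genes with the block was not taken, and without the block it was 39.8% and 28.7%. Of 926 alternative values of named genes 870 moved by less than the spread between replicates. Depth limits genes of few reads, and 20 neighbours could not be tested.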
